A study of Homo sapiens with 6 samples.

Results

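The hypoxia-inducible factors (HIF) and the proteins that sense oxygen for them are encoded by 9 genes. These are the alpha subunits HIF1A and EPAS1, the beta subunits ARNT and ARNT2, the prolyl hydroxylases EGLN1, EGLN2 and EGLN3, the asparaginyl hydroxylase HIF1AN and the ubiquitin ligase receptor VHL. They were taken by gene symbol, not by a cutoff on their values, but with earlier results of these data known. Each of the 9 matched 1 of the 61806 genes in the deposited table. The RNA came from 293T, a long-established line of human embryonic kidney origin with the SV40 large T antigen. Cells of the GFP group (3 libraries) received a plasmid for green fluorescent protein by lipid transfection, and cells of the GFP-812 group (3 libraries) received a plasmid labelled GFP-812. The labels do not explain what the longer name stands for, and they name no change of oxygen in either group. They also do not say what share of cells took up plasmid, or whether replicates were separate cultures, so the tests reflect only how far these libraries vary, and that variation may be technical. In bulk RNA, a change in some cells and a smaller change in all cells cannot be told apart.

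As background, HIF alpha protein is made continuously and is destroyed when oxygen is present. EGLN enzymes use oxygen and 2-oxoglutarate to hydroxylate prolines of the alpha subunit, VHL binds the hydroxylated form, and its ubiquitin ligase marks it for the proteasome. HIF1AN, also called FIH, hydroxylates an asparagine in the activation domain and so blocks the coactivators EP300 and CREBBP. An alpha subunit that escapes pairs with ARNT or ARNT2 and binds DNA at hypoxia response elements, whose core is ACGTG or GCGTG. Most control is therefore on protein, which RNA counts do not measure. EGLN1 and EGLN3 are themselves known HIF targets.

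Library totals ran from 14255148 to 17613814 counts, and mitochondrial genes took 3.85% to 4.03% of them. NEK1, the gene of the series title, stood at 494 to 563 FPKM (fragments scaled to exon length and to library total) in the GFP-812 libraries. In the GFP libraries it stood at 3.82 to 3.99 FPKM. The sample titles do not name NEK1. The edgeR quasi-likelihood test called 647 of 16834 genes at a Benjamini-Hochberg adjusted p under 0.05, 198 higher and 449 lower in GFP-812 cells. With 1 library left out, that count was 263 (GFP replicate 1), 414 (GFP replicate 2), 1317 (GFP replicate 3), 475 (GFP-812 replicate 1), 209 (GFP-812 replicate 2) or 292 (GFP-812 replicate 3). Among markers of the labelled epithelial kidney type, 2 of 7 epithelial genes (KRT8 and KRT18), 5 of 8 factors of the developing kidney and 1 of 9 mature tubule genes (LRP2) reached a mean of 1 FPKM. UMOD, a tubule gene, was at 0 in every library. No endothelial marker of 8 reached 1 FPKM, and their summed level was 0.94 to 1.39 FPKM in GFP-812 libraries and 0.83 to 1.47 in GFP libraries. Of the fibroblast list, 1 of 8 genes reached 1 FPKM. Of the blood cell list, 1 of 8 genes did too, while PTPRC and HBB were at 0. The summed level of the blood list was 1.62 to 1.98 FPKM in GFP-812 libraries and 0.88 to 2.16 in GFP libraries. Only 1 blood marker was tested, and it did not pass edgeR. No tested gene of the epithelial, kidney, endothelial and fibroblast lists passed edgeR; those with the smallest p were KRT8, LRP2, PAX2, KDR and COL3A1.

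None of the 9 HIF and sensor genes changed between GFP-812 and GFP cells by edgeR at an adjusted p under 0.05, against 3.84% of all genes tested (1.18% higher and 2.67% lower). At an unadjusted p under 0.05 there were 2 of 9, EGLN3 and VHL, against 16.1% of all genes. FPKM of the groups did not overlap for 2 of 9, against 20.1% of all genes: EGLN3 was higher, as were 7.93% of all genes, and HIF1A lower, as were 12.1%. All 9 passed edgeR's filter on low counts. DESeq2, which gave an adjusted p for 5 of them, limma on log2(FPKM + 1), which took 8, and limma-voom, which took 9, also called 0. Over all genes these 3 called 481, 4 and 669, so the 0 of limma on log2(FPKM + 1) adds little. Fitted differences were above 0 for 5, beside 51.8% of all genes, and below 0 for 4, with a median log2 fold change of 0.00087 beside 0.0069 over all genes tested. The widest 95% interval, that of EGLN2, ran from -0.22 to 0.51 on the log2 scale, and the narrowest, that of HIF1A, from -0.14 to 0.028.

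Levels of the 9 genes spanned a wide range and kept nearly the same order in every library. VHL and HIF1A were highest, with means over the 6 libraries of 43.0 and 40.6 FPKM, above 93.4% and 93% of the genes with a mean of at least 1 FPKM. Their ranges overlapped, and VHL was above HIF1A in 4 of 6 libraries, the exceptions being GFP replicates 1 and 3. ARNT followed at 14.3 FPKM and EPAS1 at 7.32 FPKM, neither range touching a neighbour. HIF1AN (5.45 FPKM), EGLN1 (4.76 FPKM) and EGLN3 (4.63 FPKM) formed a run whose neighbouring ranges overlapped. EGLN1 exceeded EGLN3 in 4 of 6 libraries, the exceptions being GFP-812 replicates 1 and 2, whereas HIF1AN exceeded EGLN1 in all 6. This order rests on the deposited exonic sizes, 5381 bases for EGLN1, 7363 for EGLN3 and 13894 for HIF1AN. In raw counts EGLN3 was above EGLN1 in every library. ARNT2 at 1.64 FPKM and EGLN2 at 0.767 FPKM were lowest and did not overlap each other.

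**Figure D1:**
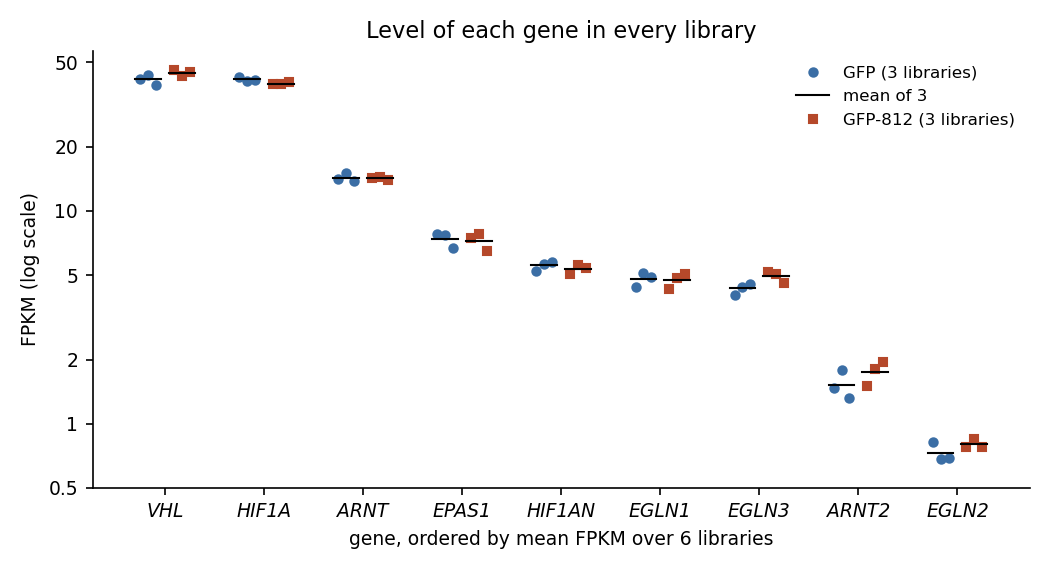
FPKM of the 9 genes (log axis) in each of 3 GFP libraries (circles) and 3 GFP-812 libraries (squares), with the mean of each group as a line; genes are ordered by their mean over all 6 libraries. VHL and HIF1A lie near 40 FPKM and EGLN2 below 1 FPKM in both groups. EGLN3 has a higher mean than EGLN1 in GFP-812 only, and VHL and HIF1A have equal means in GFP. The rest of the order is shared. The groups separate fully only for HIF1A and EGLN3, as they do for 20.1% of all genes tested.

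The members of this set whose groups did not overlap, as held for 20.1% of all genes tested, were HIF1A and EGLN3. The DNA just before their RefSeq start sites is shown to set a HIF subunit beside a HIF target. Both sequences are from RefSeq on GRCh38.p14, which shares its coordinates with hg38, the build of the table, and run from 250 to 11 bases before the start. Capitals mark a hypoxia response core.
HIF1A (chr14:61695263-61695502, plus strand): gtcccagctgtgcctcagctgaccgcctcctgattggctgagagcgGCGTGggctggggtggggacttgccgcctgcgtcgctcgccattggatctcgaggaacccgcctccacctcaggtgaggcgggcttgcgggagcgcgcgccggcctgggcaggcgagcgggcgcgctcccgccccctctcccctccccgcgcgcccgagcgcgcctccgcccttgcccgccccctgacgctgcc
EGLN3 (chr14:33951085-33951324, minus strand): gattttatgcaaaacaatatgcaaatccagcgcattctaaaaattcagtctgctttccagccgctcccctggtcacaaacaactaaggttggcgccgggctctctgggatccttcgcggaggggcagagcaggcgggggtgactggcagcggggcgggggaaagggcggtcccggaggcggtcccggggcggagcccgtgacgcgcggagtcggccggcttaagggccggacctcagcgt

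ACGTG and GCGTG were searched on both strands of the 250 bases before each start in the RefSeq promoter table, which matched 7 of the 9 genes with 9 start sites. A match was present before 4 of these 9 starts, and before 43.2% of all 35116 starts in the table. HIF1A had GCGTG, which begins 204 bases before its first start and has none before its second. EPAS1 had GCGTG 117 bases before its start and EGLN1 had ACGTG 13 bases before its start. EGLN2 had ACGTG on both strands as 1 palindrome, CACGTG, which begins 49 bases before its first start. EGLN3, ARNT and HIF1AN had none in this window. Guanine and cytosine made up 75.6% of the HIF1A window and 64% of the EGLN3 window, against a median of 58% over all starts. In the deposited table EGLN3 reaches to position 34462774 on chromosome 14, far upstream of this RefSeq start.

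Of the alpha subunits, HIF1A (ENSG00000100644, chromosome 14, 61695513 to 61748259, plus strand), the alpha chain found in most tissues, was slightly lower in every GFP-812 library. It stood at 39.37, 39.29 and 40.24 FPKM in the GFP-812 libraries, in replicate order, and at 42.66, 40.95 and 41.07 FPKM in the GFP libraries. The groups did not overlap, with GFP-812 replicate 3 and GFP replicate 2 nearest to each other. edgeR gave a log2 fold change of -0.056 (SE 0.0417, 95% interval -0.14 to 0.028, adjusted p = 0.543). The interval spans a fold of 0.908 to 1.02. HIF1A was also the steadiest of the 9: its coefficient of variation within groups was 1.33% and 2.3%, near the 1.76% and 1.7% that counting alone gives at its depth.

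EPAS1 (ENSG00000116016, chromosome 2, 46293667 to 46386697, plus strand) encodes HIF2 alpha, known from endothelium and from erythropoietin control. It measured 7.45, 7.77 and 6.5 FPKM in the GFP-812 libraries and 7.76, 7.71 and 6.71 FPKM in the GFP libraries. Replicate 3 was lowest in both groups, and the groups overlapped throughout. The log2 fold change was -0.021 (SE 0.0673, 95% interval -0.16 to 0.11, edgeR adjusted p = 0.922). Spread within groups, 9.11% and 8.03%, was well above the counting error of 3.47% and 3.39%. HIF1A made up 84.1%, 83.5% and 86.1% of the summed alpha subunit FPKM in the GFP-812 libraries and 84.6%, 84.2% and 86% in the GFP libraries. That share differed by -0.35 percentage points (84.6% ± 1.36 against 84.9% ± 0.937, SD, n = 3 each; exact 2-sided permutation p = 0.7, where 0.1 is the smallest possible), and its sign turned when GFP-812 replicate 2 (0.184) or GFP replicate 3 (0.174) was left out.

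Of the beta subunits, ARNT (ENSG00000143437, chromosome 1, 150809713 to 150876708, minus strand), the usual partner of both alpha chains and of the dioxin receptor AHR, had the smallest fitted difference of the 9. It measured 14.33, 14.4 and 13.99 FPKM in the GFP-812 libraries and 14.08, 15.08 and 13.9 FPKM in the GFP libraries. GFP replicates 2 and 3 held the extremes, with all GFP-812 libraries between them. Its fitted difference was 0.00087 (SE 0.0517, 95% interval -0.1 to 0.1, edgeR adjusted p = 0.996), a fold of 0.931 to 1.08.

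ARNT2 (ENSG00000172379, chromosome 15, 80404350 to 80597933, plus strand), a paralog known chiefly from the nervous system and kidney, was rare. Its values were 1.51, 1.8 and 1.95 FPKM in the GFP-812 libraries and 1.48, 1.78 and 1.32 FPKM in the GFP libraries, from 164 to 266 counts each. The groups overlapped, and the fitted log2 fold change of 0.22 (SE 0.123, 95% interval -0.026 to 0.47) did not pass (edgeR adjusted p = 0.378). It was 0.12 without GFP replicate 3 and 0.34 without GFP replicate 2. ARNT2 made up 9.53%, 11.1% and 12.2% of beta subunit FPKM in the GFP-812 libraries and 9.51%, 10.6% and 8.67% in the GFP libraries. The difference of 1.38 percentage points (11% ± 1.36 against 9.58% ± 0.944, SD, n = 3 each) gave an exact 2-sided permutation p = 0.2, and was 0.741 without GFP-812 replicate 3 and 2.09 without GFP-812 replicate 1.

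**Figure D2:**
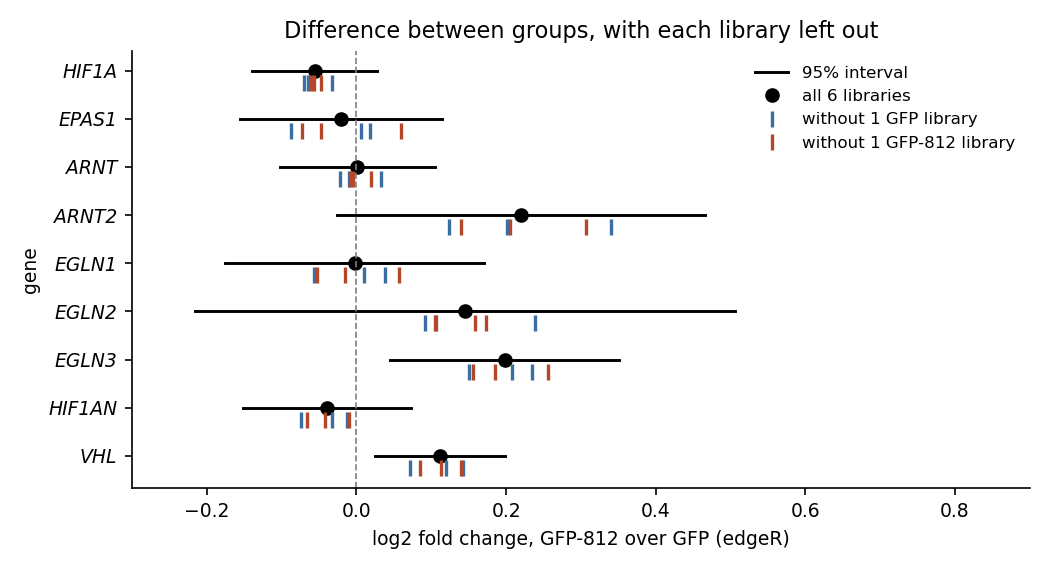
Fitted log2 fold change of each gene, GFP-812 over GFP (edgeR, black dots), with its 95% interval (black lines) and the fits that leave out 1 GFP library (blue ticks) or 1 GFP-812 library (red ticks). The intervals of EGLN3 and VHL lie above 0 while their adjusted p of 0.145 and 0.147 do not pass, and single libraries move ARNT2 from 0.12 to 0.34.

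Of the prolyl hydroxylases, EGLN3 (ENSG00000129521, chromosome 14, 33924227 to 34462774, minus strand), strongly induced by hypoxia in many cells, was with VHL 1 of the 2 members that had an unadjusted p under 0.05. It stood at 5.19, 5.03 and 4.58 FPKM in the GFP-812 libraries and at 4.02, 4.41 and 4.56 FPKM in the GFP libraries. Every GFP-812 library lay above every GFP library, though replicate 3 of each group were nearly equal. The fitted difference was 1.15-fold (log2 fold change 0.2, SE 0.0762, 95% interval 0.045 to 0.35), with an unadjusted p of 0.012 and an adjusted p of 0.145 in edgeR. Its adjusted p stayed above the threshold under the 16 alternatives that gave one, at 0.0727 to 0.47. SPTSSA lies within the annotated span of EGLN3 on the same strand, with no exonic base in common in GENCODE release 29, and had a log2 fold change of 0.064 (edgeR adjusted p = 0.563).

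EGLN1 (ENSG00000135766, chromosome 1, 231363751 to 231422287, minus strand), the main HIF prolyl hydroxylase at normal oxygen, had no detectable difference between groups. It measured 4.28, 4.84 and 5.07 FPKM in the GFP-812 libraries and 4.41, 5.09 and 4.88 FPKM in the GFP libraries. Both groups covered nearly the same range, and the fitted difference was -0.0026 (SE 0.0865, 95% interval -0.18 to 0.17, edgeR adjusted p = 0.993). Within the GFP-812 group, EGLN1 and ARNT2 were lowest and EGLN3 highest in replicate 1, the library with the fewest counts, and the opposite held in replicate 3, the library with the most. The part of depth in this was not tested.

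EGLN2 (ENSG00000269858, chromosome 19, 40798996 to 40808434, plus strand), the remaining prolyl hydroxylase, was listed at 0.78, 0.85 and 0.78 FPKM in the GFP-812 libraries and at 0.82, 0.68 and 0.69 FPKM in the GFP libraries. These rest on 72 to 90 counts, so that counting error alone is 11% and 11.4% in the 2 groups. No difference was detectable at this depth (log2 fold change 0.14, SE 0.18, 95% interval -0.22 to 0.51, edgeR adjusted p = 0.753). The level itself is uncertain. The read-through gene RAB4B-EGLN2 overlaps 9423 bases of EGLN2 on the same strand and was listed at 0 in all 6 libraries, and RAB4B, looked up after these values were seen, stood at 0.16 and 0.117 FPKM. In GENCODE release 29, which may not be the release the authors used, 2012 of 6577 exonic bases of EGLN2 (30.6%) are also exons of the read-through gene. How reads in shared exons were counted is not given in the sources used here, and its part in the EGLN2 level was not tested.

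Within the prolyl hydroxylases, EGLN3 took 50.6%, 46.9% and 43.9% of the summed FPKM in the GFP-812 libraries and 43.5%, 43.3% and 45% in the GFP libraries. The GFP-812 libraries spread widely and replicate 3 fell inside the GFP range. Their mean share was 47.2% ± 3.37 against 43.9% ± 0.941 (SD, n = 3 each), a difference of 3.22 percentage points (exact 2-sided permutation p = 0.2). It was 1.49 points without GFP-812 replicate 1 and 4.85 without GFP-812 replicate 3. EGLN1 took 41.8%, 45.1% and 48.6% in the GFP-812 libraries and 47.7%, 50% and 48.2% in the GFP libraries. Its share differed by -3.44 points (exact 2-sided permutation p = 0.3), or -1.74 without GFP-812 replicate 1 and -5.16 without GFP-812 replicate 3. EGLN2 took 6.68% to 8.86% in all 6 libraries (exact 2-sided permutation p = 1). Over the 5 shares tested, the smallest Benjamini-Hochberg adjusted permutation p was 0.5.

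**Figure D3:**
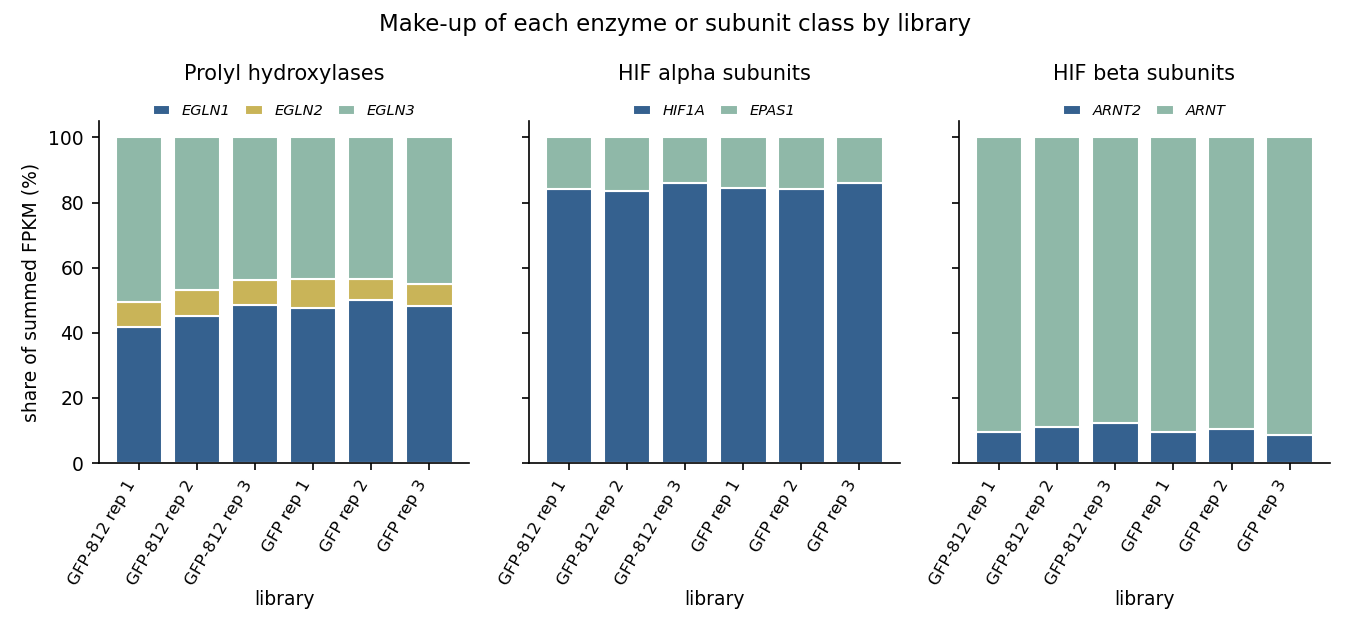
Share of the summed FPKM (percent, stacked) taken by each prolyl hydroxylase, alpha subunit and beta subunit in each of the 6 libraries. EGLN1 and EGLN3 take similar shares, HIF1A takes 83.5% to 86.1% of the alpha subunits and ARNT2 8.67% to 12.2% of the beta subunits, with both groups overlapping in each panel.

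HIF1AN (ENSG00000166135, chromosome 10, 100529072 to 100559998, plus strand) measured 5.07, 5.56 and 5.4 FPKM in the GFP-812 libraries and 5.25, 5.64 and 5.76 FPKM in the GFP libraries. The groups overlapped, and replicate 1 was lowest in each. Its log2 fold change was -0.04 (SE 0.0559, 95% interval -0.15 to 0.072, edgeR adjusted p = 0.788). HIF1AN shares 325 exonic bases with NDUFB8 on the opposite strand in GENCODE release 29, 2.33% of its exonic length.

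VHL (ENSG00000134086, chromosome 3, 10141778 to 10153667, plus strand) measured 45.85, 42.9 and 44.76 FPKM in the GFP-812 libraries and 41.83, 43.57 and 39.28 FPKM in the GFP libraries. The groups overlapped at 1 point, where GFP replicate 2 exceeded GFP-812 replicate 2. The log2 fold change of 0.11 (SE 0.0431, 95% interval 0.025 to 0.2) had an unadjusted p of 0.0124 and an adjusted p of 0.147 in edgeR. Under the 17 alternatives its adjusted p ran from 0.0694 to 0.455. HIF1A over VHL, as a ratio of FPKM, was 0.859, 0.916 and 0.899 in the GFP-812 libraries and 1.02, 0.94 and 1.05 in the GFP libraries. It is given as a description, and neither gene passed the test. Of the ratios computed, it was the only one whose groups did not overlap. They overlapped for HIF1A over EPAS1, ARNT over ARNT2, EGLN1 over EGLN3 and HIF1A over ARNT.

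The genes whose profile over the 6 libraries was most like that of EGLN3 were NIPSNAP3A, GTF2H5 and EFHD1. Likeness was the root mean square difference between centred log2 CPM (library-scaled counts) profiles, among 6870 genes with a mean of at least 5 FPKM. The differences were 0.0272, 0.031 and 0.0361 on the log2 scale, where EGLN3 itself varied by 0.125. None of the 3 passed edgeR (adjusted p 0.146, 0.0842 and 0.419). That adds no separate result, as they were picked for matching EGLN3 over the same libraries.

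Around the 9 genes, the partners of VHL in its ubiquitin ligase centred near 0, with a median log2 fold change of 0.0089. Of 13 tested, 1 rose (7.69%, beside 1.18% of all genes called higher) and 0 fell. ELOB, which encodes elongin B, part of the adaptor between VHL and the cullin, stood at 10.07, 10.1 and 9.98 FPKM in the GFP-812 libraries and 8.38, 7.72 and 9.23 FPKM in the GFP libraries. All GFP-812 libraries were higher, by 0.26 ± 0.0646 (SE) on the log2 scale (edgeR adjusted p = 0.00916). Leaving out replicate 2 of either group ended the call (adjusted p = 0.0741 for GFP-812 and 0.103 for GFP), and 3 partners rose when replicate 3 of GFP was left out. Among 30 other regulators of HIF alpha stability, 0 rose and 1 fell, a share of 3.33% that is near the 3.84% of all genes called. The gene was the deubiquitinase USP8, at -0.18 (SE 0.052, edgeR adjusted p = 0.0328), whose call ended when replicate 2 or 3 of GFP-812, or replicate 1 or 2 of GFP, was left out (0.11 to 0.222), and with upper-quartile scaling (0.0559). With replicate 2 of GFP left out 1 rose, and with its replicate 3 left out 4 fell and 1 rose.

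The list of HIF coactivators also holds CITED2, a competitor described below. Of 14 genes tested on this list, 2 rose and 4 fell, or 42.9%, beside the 3.84% of all genes. The list's median log2 fold change was -0.072. The list was not tested as a whole, and it was chosen with earlier results of these data known. EP300, an acetyltransferase that HIF alpha recruits, stood at 8.46, 8.19 and 8.23 FPKM in the GFP-812 libraries and 10.74, 11.1 and 9.26 FPKM in the GFP libraries. The groups were well apart (-0.31 ± 0.0532, SE, on the log2 scale; edgeR adjusted p = 0.000109). Its close relative CREBBP fell too (3.87 ± 0.241 FPKM in GFP-812 and 4.7 ± 0.425 in GFP libraries, SD, n = 3 each). Its difference was -0.27 ± 0.0621 (SE) on the log2 scale, with an edgeR adjusted p = 0.00466. CITED2, a HIF-induced protein that competes with HIF alpha for both, was higher. It stood at 40.26, 42.9 and 43.42 FPKM in the GFP-812 libraries and 29.97, 34.82 and 37.8 FPKM in the GFP libraries, with no overlap (0.32 ± 0.0565, SE, on the log2 scale; edgeR adjusted p = 0.000177).

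The Mediator subunit MED1 fell by 0.16 on the log2 scale (SE 0.0456, edgeR adjusted p = 0.0391). NCOA1 at -0.21 and ZNF395 at 0.22, named after their values were seen, completed the calls (edgeR adjusted p = 0.0451 and 0.0469). CITED2 and ZNF395 were thus the 2 genes of the list that rose. EP300 and CITED2 kept their edgeR calls without each single library. CREBBP lost its call when replicate 2 (0.0726) or 3 (0.0888) of GFP-812, or replicate 1 of GFP (0.152), was left out. MED1 lost its call in the absence of each library other than GFP replicate 3 (0.0675 to 0.228) and with upper-quartile scaling (0.07). Leaving out replicate 1 of GFP, or replicate 2 or 3 of GFP-812, left 1 gene of the coactivator list risen and 1 fallen. Leaving out replicate 2 of GFP left 1 risen and 2 fallen, and leaving out replicate 1 of GFP-812 left 2 of each. Upper-quartile scaling gave 3 risen and 2 fallen.

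Other oxygen-using dioxygenases split by direction: of 30 tested, 3 rose and 3 fell, or 20%, beside 3.84% of all genes (1.18% higher and 2.67% lower). Their median log2 fold change was -0.062. The collagen hydroxylases PLOD2 and P4HA1 rose, at 49.2 ± 2.13 against 41.7 ± 2.79 FPKM and 68 ± 4.69 against 58.1 ± 2.07 FPKM (SD, n = 3 each), by log2 fold changes of 0.25 and 0.24 (edgeR adjusted p = 6.72e-05 and 0.000396). The histone demethylase KDM6A fell (3.28 ± 0.116 FPKM in GFP-812 and 3.99 ± 0.365 in GFP libraries, SD, n = 3 each; edgeR adjusted p = 0.000939), a call that ended with replicate 1 of GFP left out (0.0533). The aspartyl hydroxylase ASPH rose by 0.15 on the log2 scale (edgeR adjusted p = 0.0323), but its groups met at 15.05 FPKM. It stood at 15.05, 15.87 and 16.59 FPKM in the GFP-812 libraries and at 13.57, 15.05 and 14.74 FPKM in the GFP libraries. Its call ended when replicate 1 of GFP or replicate 2 or 3 of GFP-812 was left out (0.171 to 0.302), and with total-count scaling (0.0536). The histone demethylases KDM5B and KDM5A, named after their values were seen, had log2 fold changes of -0.15 and -0.16. Fallen dioxygenases numbered 0 when replicate 1 of GFP was left out, 1 when replicate 2 of GFP or replicate 2 or 3 of GFP-812 was, and 1 with upper-quartile scaling.

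No enzyme that makes or uses 2-oxoglutarate, succinate or fumarate passed (0 of 20; IDH2 had the smallest p, with a log2 fold change of 0.15 and an edgeR adjusted p = 0.178). Of 11 other bHLH-PAS factors 0 passed; HIF3A, a further alpha subunit and the list's smallest p, was at 0.04 to 0.22 FPKM in all 6 libraries.

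Of 35 well-known HIF targets tested, 14 rose and 0 fell, or 40%, beside 1.18% of all genes called higher, and 33 of 35 had a fitted difference above 0. Their median log2 fold change was 0.14, against 0.0069 over all genes tested and 0.00087 for the 9 subunits and sensors. Like the other lists, this one was chosen with earlier results of these data known. NDRG1, a stress response gene, PGK1 and LDHA, enzymes of glycolysis, and P4HA1 had the smallest p, with log2 fold changes of 0.51, 0.27, 0.21 and 0.24. These 4 kept their edgeR calls without each single library. All 4 were lowest in replicate 1 of each group. NDRG1 stood at 8.6, 10.58 and 10.93 FPKM in the GFP-812 libraries and at 5.82, 7.56 and 8 FPKM in the GFP libraries. P4HA1 is also counted among the risen dioxygenases above. KDM3A, a histone demethylase, and VEGFA, an angiogenic growth factor, both on the list and picked out after the values were seen, had log2 fold changes of 0.0034 and 0.093 and did not pass (edgeR adjusted p = 0.983 and 0.406). Risen targets numbered 5 with replicate 1 of GFP left out, 8 with replicate 2 of GFP-812 left out, and 9 by DESeq2. Neurofilament and other neuronal markers, which 293T cells are known to express, also moved with the group: 3 of 4 tested rose, NEFM by 0.3, ENO2 by 0.26 and NEFL by 0.17. The summed level of the 6 markers on that list was 106.3 to 117.8 FPKM in GFP-812 libraries and 88.9 to 102.4 FPKM in GFP libraries. Tested epithelial markers had a median of 0.15, with 6 of 6 above 0 and a summed level of 27.6 to 30.6 FPKM in GFP-812 and 26.2 to 27.2 FPKM in GFP libraries. Tested fibroblast markers had a median of 0.32, with 4 of 4 above 0 and a summed level of 3.1 to 3.65 FPKM in GFP-812 and 2.65 to 3.24 FPKM in GFP libraries. None of these epithelial or fibroblast genes passed edgeR. The part of these 3 marker lists in the result was not tested. NEFM kept its edgeR call without each library. ENO2 and NEFL lost theirs without replicate 1 or 2 of GFP, or replicate 2 or 3 of GFP-812, at adjusted p of 0.0628 to 0.317 and 0.0684 to 0.343, and by DESeq2 (0.0654 and 0.0547), and NEFL also with total-count scaling (0.0559).

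**Figure D4:**
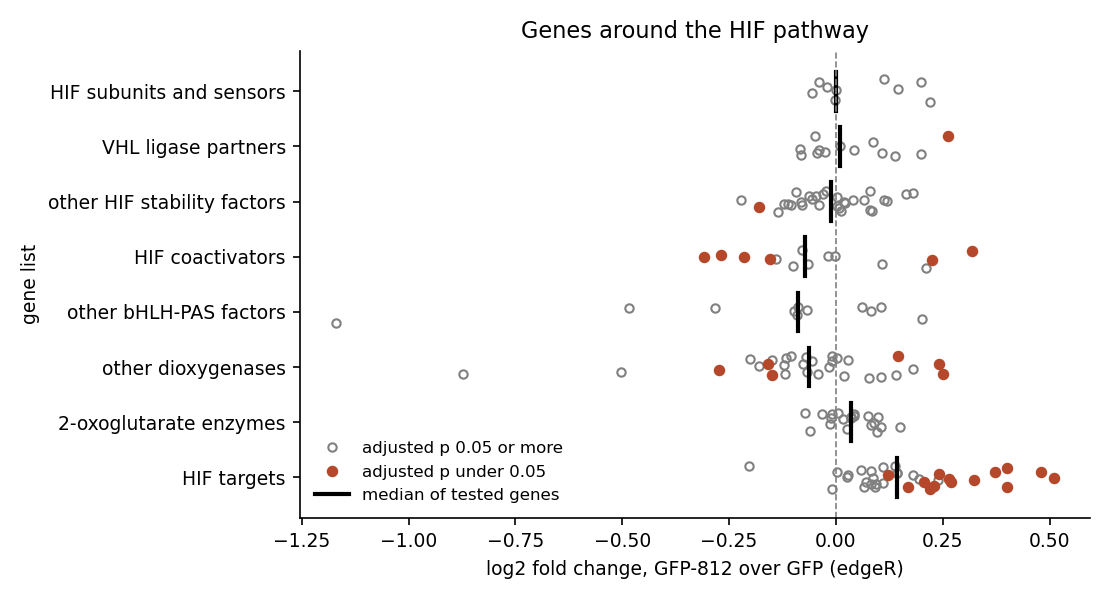
Log2 fold change, GFP-812 over GFP (edgeR), of each tested gene in 8 lists around the HIF pathway; filled dots have an adjusted p under 0.05, open circles do not, and bars mark list medians. The subunits and sensors centre on 0 with no filled dot, and the 14 called targets all lie above 0. The coactivator list, which includes the competitor CITED2, holds calls on both sides.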

How the data were processed

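RNA-seq of 3 GFP-812 and 3 GFP libraries was used. Reads had been processed with HISAT2 2.2.1, HTSeq 0.6.1, cutadapt 1.9.1 and FastQC 0.10.1 on build hg38, per the submitters' processing notes. Neither strand setting nor annotation release is given in the sources used here. The authors deposited raw counts per gene and, per the file headers, FPKM. Recomputing FPKM from count, exonic size and library total differed by at most 0.0050.

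Counts were tested with edgeR 4.0.16 in R 4.3.3 (quasi-likelihood F test, group alone in the model, TMM scaling, filterByExpr, Benjamini-Hochberg over 16834 genes, threshold 0.05). Standard errors and 95% intervals came from the F statistic. limma 3.58.1 and DESeq2 1.42.0 were alternatives; the code was tested on simulated data. FPKM levels are mean ± SD. Shares were compared by exact permutation in scipy 1.17.1.

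The 9 genes and the 14 other lists were chosen with earlier results of these data known. All 9 genes are named; each other list gave its called genes, at most 4 by p, or else the 1 with the smallest p, and the 3 genes most like the member with the smallest p were added; 1 gene that this rule named is not reported here. Promoter sequences are RefSeq's on GRCh38.p14. Limma-voom, total-count scaling and the prolyl hydroxylase shares without EGLN2 were added after seeing the data.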

Additional observations from a re-analysis of the deposited data

How the results depend on the processing

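No HIF or sensor gene was called under the 17 alternatives, of which DESeq2 gave an adjusted p for 5 of the 9, and both limma fits on FPKM and the filter at a mean FPKM of at least 1 for 8. The count over all genes, 647 in edgeR, was 4 with limma on log2(FPKM + 1), 4 with limma on log2(FPKM + 0.1), and 209 to 1317 when each library was left out. Every called gene named here other than NEK1 lost its call under both limma fits; the cause was not tested. Upper-quartile scaling gave 280 higher and 339 lower genes in place of 198 and 449. Signs near 0 turned. ARNT was at -0.000501 with median-of-ratios scaling, -0.00398 without a filter on low counts, -0.000731 with DESeq2, -0.00998 and -0.0106 with limma at pseudocounts of 1 and 0.1, -0.0119 with total-count scaling and -0.0225 to 0.033 without single libraries. EGLN1 was at 0.0124 with upper-quartile scaling, 0.0047 at a mean FPKM of at least 1 and -0.0564 to 0.0569 without single libraries, and EPAS1 at -0.0875 to 0.0596. The HIF1A share ran from -1.12 to 0.184 percentage points without single libraries. Over all genes tested, same-numbered libraries did not deviate together (correlations 0.0318, -0.0102 and 0.00614). Of the 6 libraries, 2 were closest to their own number. The HIF targets NDRG1, PGK1, LDHA and P4HA1 were nevertheless each lowest in replicate 1 of both groups. With the replicate number as a block, 777 genes and 0 of the 9 were called, and shares differed by 3.22, -3.44, -0.35 and 1.38 points for EGLN3, EGLN1, HIF1A and ARNT2 (exact sign-flip p 0.5, 0.5, 0.5 and 0.25, the smallest possible being 0.25). EGLN2 and ARNT2 are limited by depth, at 72 to 266 counts per library.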
